A study of Homo sapiens with 9 samples.

Results

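The ubiquitin-specific proteases (USP genes) form the largest human family of deubiquitinases, and 49 of the 30956 genes in the table of this series belong to it. Members were the protein-coding genes whose symbol is USP followed by a number and at most one further letter, so relatives such as USPL1 and the USP17-like genes were not counted. HEK293T is a human embryonic kidney line transformed by viral proteins. CCR4-NOT was pulled down from it through V5-tagged CNOT7, a nuclease subunit whose D40A substitution impairs catalysis, and the RNA that came with it was sequenced (RIP). The labels list 3 RIP libraries, whose titles state no doxycycline treatment, 3 inputs titled with doxycycline and 3 titled without it. Cells were grown with or without the drug, at 3 µg/mL over 24 h. The table held 3 RIP and 3 input columns. The names of the input columns fit both kinds of input, so they were used as 1 group of input RNA whose doxycycline state is not known. All libraries were cytoplasmic RNA depleted of ribosomal RNA, and the labels leave unsaid whether replicates came from separate cultures. The p-values therefore reflect only how far these libraries differ among themselves, which may be technical.

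Deubiquitinases cut ubiquitin from proteins, which can rescue a protein from the proteasome or end a signal. The USP family shares a papain-like cysteine protease fold, and many members work only with a partner, such as WDR48 for USP1, USP12 and USP46. CCR4-NOT shortens the poly(A) tails of mRNAs and is brought to particular transcripts by RNA-binding proteins. An mRNA above input in RIP was therefore recovered with the complex in a larger share than in the cell extract, and the measurement concerns the mRNA, not the USP protein.

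The 6 libraries held 37140622 to 40764899 reads in genes. Values are normalized counts, that is, reads divided by the authors' size factor of each library, and 3 reads stood for 2.24 to 3.49 normalized counts. Mitochondrially encoded RNA made up 18.6% to 26.6% of reads in input and 0.931% to 1.12% in RIP. RIP replicate 2 had 14786 genes without a read, against 6720 and 6398 in the other RIP libraries. The bait's own gene, CNOT7, had 86982.4 ± 11495.0 normalized counts in RIP and 24799.9 ± 497.6 in input (SD, n = 3 each), with tagged and endogenous transcripts counted together. All 8 genes chosen as typical of HEK293 cells had reads in every input, from 58.1 (LHX1, lowest) to 31429 (VIM, highest) normalized counts. Of 8 genes of other cell types, 4 were in the table, with at most 104.6 normalized counts in input. No pull-down from cells lacking the tag was analysed here, so recovery unrelated to CNOT7 was not measured.

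USP mRNAs were recovered with CCR4-NOT above input more often than below it. Of the 49 genes, 46 had a mean of at least 10 normalized counts over the 6 libraries and were tested. By limma on log2 values, 18 (39.1%) were higher in RIP, 8 (17.4%) were lower and 20 did not pass at an adjusted p under 0.05. Among all 16765 tested genes 22.4% were higher and 21.2% lower, and among tested protein-coding genes 26.0% and 25.3%. The median log2 difference of the 46 genes (RIP minus input) was 0.27, against -0.043 for all tested genes and -0.050 for protein-coding genes. Of the 46 values, 31 lay above 0, 9 were at or above a log2 difference of 1, and 2 were at or below -1. Every RIP library lay above every input library for 19 of these genes (41.3%, against 27.4% of all tested genes) and below for 9 (19.6%, against 27.3%). These shares describe the family and were not tested against those of other genes.

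**Figure D1:**
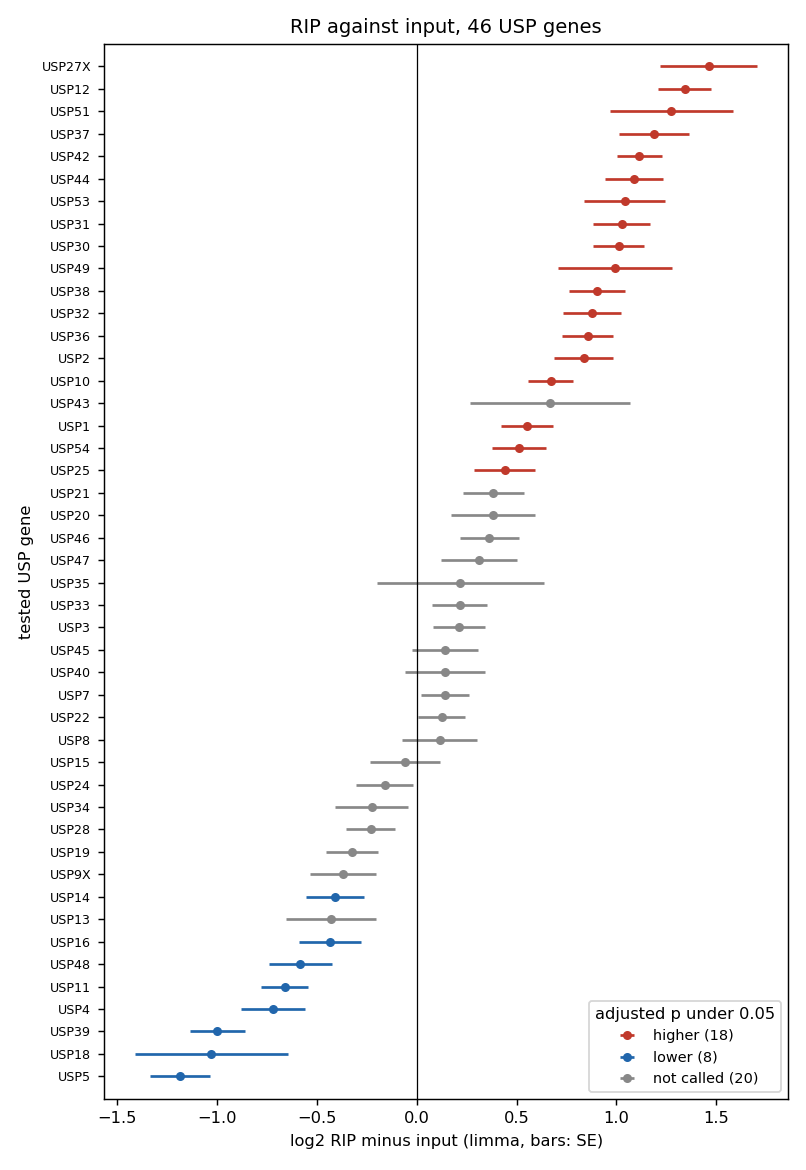
Log2 difference of RIP minus input (x axis) for the 46 tested USP genes (y axis), with SE bars from limma; red marks genes higher in RIP, blue lower and grey not called at an adjusted p under 0.05. Values run from -1.19 for USP5 to 1.46 for USP27X, with 18 red, 8 blue and 20 grey genes.

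The direction of the smaller differences changed with the scaling of the libraries. Under total-count scaling the median of the USP genes was 0.76, 30 were higher and 2 lower (USP5 and USP39), while 6149 of all tested genes were higher and 1653 lower. Total-count scaling moved the median of all tested genes from -0.043 to 0.44, a shift close to that of the USP genes. Summed over the family, USP mRNAs made up 0.703%, 0.692% and 0.665% of RIP reads and 0.4996%, 0.439% and 0.366% of input reads. In normalized counts the same sums were 216036, 210125 and 199318 in RIP against 202926, 187102 and 165430 in input, so on that scale the groups overlapped. Calls below are relative to a typical gene under the authors' size factors.

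**Figure D2:**
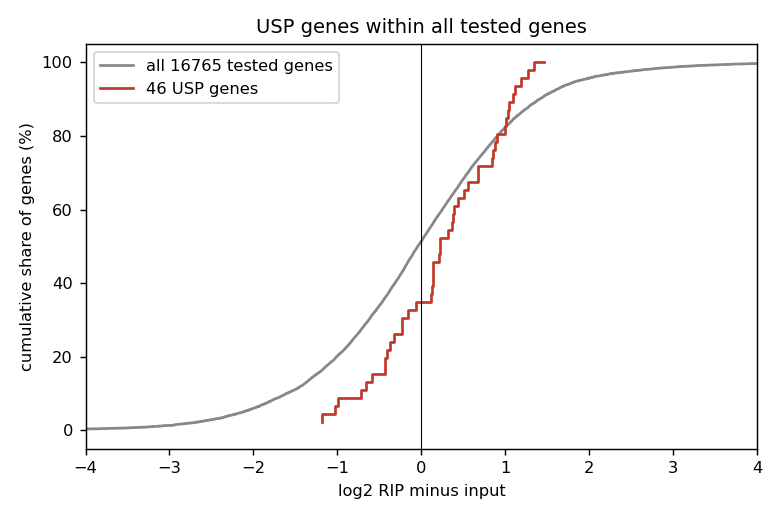
Cumulative share of genes (y axis, percent) by log2 difference of RIP minus input (x axis) for all 16765 tested genes (grey) and the 46 USP genes (red). The red curve lies to the right over most of its range, with medians of 0.27 and -0.043, and it spans less of the axis, from -1.19 to 1.46.

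The partners of WDR48, a scaffold that activates USP1, USP12 and USP46, had 2 of 3 members higher and none lower, against 22.4% and 21.2% of all tested genes. USP12, which acts on signalling receptors and histones (ENSG00000152484, chromosome 13, 27066156 to 27171811, GRCh38.p14), had 5916, 5214 and 5618 normalized counts in RIP and 2338, 2393 and 1899 in input. All RIP libraries lay far above the highest input, and the ratio was 2.54-fold (log2 1.34, SE 0.13, adjusted p = 7.8e-06). USP1, which deubiquitinates FANCD2 and PCNA in DNA repair, had 14528.0 ± 1661.5 in RIP against 9920.4 ± 1187.9 in input (SD, n = 3 each), a log2 difference of 0.55 (adjusted p = 0.0045). USP46 had 3358.5 ± 388.4 against 2620.8 ± 399.0 and did not pass (log2 0.36, adjusted p = 0.066), its lowest RIP value (2991.4) being level with its highest input (2991.6). It passed without RIP replicate 3 (0.44) or without input replicate 1 (0.46), and in the authors' deposited DESeq2 table (0.36, adjusted p = 0.048). WDR48 itself was near equal in both groups (log2 -0.0083, adjusted p = 0.96), whereas the further cofactor WDR20 was higher (log2 1.65, adjusted p = 4.7e-06).

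Histone deubiquitinases included the USP gene with the largest difference. Of 8 genes in this list 4 were higher (22.4% of all tested genes were), 1 was lower (12.5%, against 21.2%) and 3 did not pass, with a median log2 difference of 0.69. Not in this list were USP12 (higher) and USP48 (lower), which also act on histones. USP27X (ENSG00000273820, chromosome X, 49879484 to 49882558), a relative of USP22 that acts on histone H2B, had 886, 650 and 929 normalized counts in RIP against 351, 242 and 299 in input. The groups did not overlap, and RIP exceeded input 2.76-fold (log2 1.46, SE 0.24, adjusted p = 4.0e-04). USP51, the third gene of that subfamily (ENSG00000247746, chromosome X, 55484616 to 55489848), had 638, 422 and 502 in RIP against 151, 284 and 220 in input. Its RIP libraries also lay above all inputs (2.42-fold, log2 1.28, SE 0.31, adjusted p = 0.0049). USP22, the deubiquitinase of the SAGA complex, had 18640.8 ± 1445.3 against 17081.5 ± 1088.2 (SD, n = 3 each) and overlapped between groups (log2 0.13, adjusted p = 0.42). The SAGA partners ATXN7 and ATXN7L3 were higher (log2 1.54 and 0.88) and ENY2 lower (log2 -0.67), by limma at adjusted p of 9.2e-06, 4.7e-04 and 0.013.

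USP44, which acts on histone H2B and in the spindle checkpoint (ENSG00000136014, chromosome 12, 95516560 to 95551681), had the closest RIP replicates of all tested USP genes. It had 1829, 1884 and 1772 normalized counts in RIP against 911, 814 and 851 in input (2.13-fold, log2 1.09, SE 0.15, adjusted p = 7.7e-05). The coefficient of variation over its RIP libraries was 3.07%, against a median of 13.7% for the 46 genes. USP49, another H2B enzyme, had 495.4 ± 50.5 against 255.9 ± 84.0 (log2 0.99, adjusted p = 0.014), and it did not pass without input replicate 2 (0.87, adjusted p = 0.055) or 3 (0.86, adjusted p = 0.053). USP16, an H2A deubiquitinase needed in mitosis, was the lower member. It had 2124, 1779 and 1501 in RIP against 2498, 2592 and 2158 in input, so the closest libraries of the groups nearly touched (log2 -0.43, SE 0.16, adjusted p = 0.040). The USP16 difference turned to 0.061 under total-count scaling. USP16 did not pass with edgeR (adjusted p = 0.054) or in the authors' deposited DESeq2 table (adjusted p = 0.058). By limma it also did not pass with no filter (adjusted p = 0.059) or with scaling by protein-coding reads (-0.30, adjusted p = 0.14). The call was lost as well without RIP replicate 2 (-0.43) or 3 (-0.31) or input replicate 1 (-0.41) or 2 (-0.38). USP21 (log2 0.38, adjusted p = 0.062) and USP3 (log2 0.21, adjusted p = 0.22) did not pass, although every RIP library of USP3 lay above its inputs. USP21 passed without RIP replicate 1 (0.51) and in the authors' deposited DESeq2 table (0.39, adjusted p = 0.027).

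Genes of the cell cycle list had 3 of 5 members higher (USP1, USP37 and USP44) and none lower, beside 22.4% and 21.2% of all tested genes. USP1 and USP44 were also members of the WDR48 and histone lists, since a gene in several lists counted in each. The other members, USP13 and USP28, did not pass, with log2 differences of -0.43 and -0.23. USP37, which stabilizes cyclin A (ENSG00000135913, chromosome 2, 218450251 to 218568351), had 8292, 5808 and 6344 normalized counts in RIP against 3540, 3125 and 2332 in input. RIP replicate 1 was the highest, and even the lowest RIP library exceeded all inputs (2.28-fold, log2 1.19, SE 0.17, adjusted p = 1.6e-04). USP28, which acts on MYC, had 3923.3 ± 252.1 against 4608.8 ± 475.9 (SD, n = 3 each) and did not pass (log2 -0.23, adjusted p = 0.16). Its relative USP25 was higher, 5973.0 ± 926.0 against 4404.1 ± 704.0 (log2 0.44, adjusted p = 0.034). The USP25 call was lost without RIP replicate 1 (0.33) or 2 (0.44) and without input replicate 2 (0.47) or 3 (0.31).

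USP42, a nuclear enzyme (ENSG00000106346, chromosome 7, 6081241 to 6161564), had 5828, 5545 and 5955 normalized counts in RIP against 2581, 2781 and 2634 in input. Both groups were tight, and RIP exceeded input 2.17-fold (log2 1.12, SE 0.11, adjusted p = 1.0e-05). Its nucleolar relative USP36 had 5484.5 ± 594.4 against 3023.2 ± 267.9 (log2 0.86, adjusted p = 1.8e-04). In the list around the tumour suppressor p53 and MDM2, a ubiquitin ligase, USP2 and USP10 were higher (log2 0.84 and 0.67, adjusted p = 5.8e-04 and 4.8e-04). USP7, the main deubiquitinase of MDM2, did not pass (log2 0.14, adjusted p = 0.38), with 9083, 9930 and 9807 in RIP inside or just above the input range of 7799 to 9924. The mRNA of MDM2 itself was higher (log2 0.99, adjusted p = 2.3e-04).

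USP53, found at tight junctions (ENSG00000145390, chromosome 4, 119212601 to 119295518), had 5791, 4250 and 3437 normalized counts in RIP against 2627, 2212 and 1670 in input. The RIP libraries spread widely yet stayed above all inputs (2.06-fold, log2 1.04, SE 0.20, adjusted p = 0.0012). Its relative USP54 had 3657.4 ± 507.2 against 2552.0 ± 185.6 (log2 0.51, adjusted p = 0.0085), with 0.46 and an adjusted p of 0.052 without input replicate 2. USP31 (ENSG00000103404, chromosome 16, 23061406 to 23149452) had 3415, 3377 and 3216 in RIP against 1952, 1488 and 1507 in input (2.04-fold, log2 1.03, SE 0.14, adjusted p = 1.0e-04). USP30, which sits on the mitochondrial outer membrane and opposes Parkin, had 3305.0 ± 309.1 against 1635.1 ± 55.1 (log2 1.01, adjusted p = 5.8e-05). USP38 and USP32 were also higher, with log2 differences of 0.90 and 0.88 (adjusted p = 2.3e-04 and 3.4e-04).

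**Figure D3:**
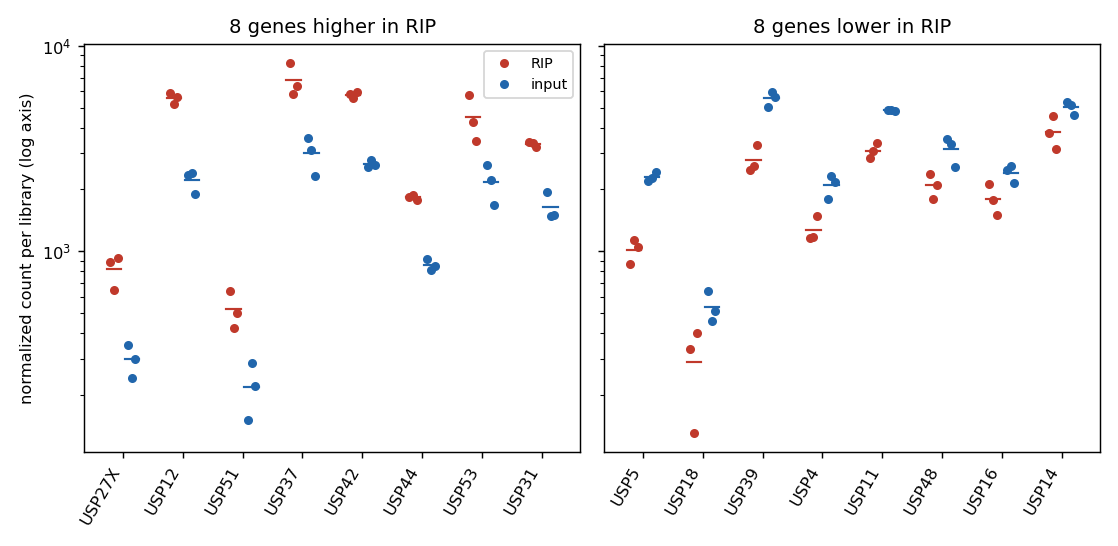
Normalized count of each library (log y axis) for the 8 USP genes with the largest positive and the 8 with the largest negative difference among called genes whose groups did not overlap; points are libraries, red RIP and blue input, and bars are group means. In all 16 genes the 3 RIP points lie on 1 side of the 3 input points, and RIP replicate 2 of USP18, at 130, lies far below the other RIP points of that gene.

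Of USP5, USP13 and USP14, which handle free ubiquitin chains or work at the proteasome, 2 were lower and none was higher, against 21.2% lower and 22.4% higher over all tested genes. USP5, which takes apart unanchored ubiquitin chains (ENSG00000111667, chromosome 12, 6852150 to 6866632), had 864, 1135 and 1046 normalized counts in RIP against 2198, 2260 and 2435 in input. The highest RIP library was well below the lowest input, and input exceeded RIP 2.28-fold (log2 -1.19, SE 0.15, adjusted p = 5.8e-05). USP14, which binds the proteasome's regulatory particle (ENSG00000101557, chromosome 18, 158557 to 214629), had 3759, 4564 and 3154 in RIP against 5335, 5125 and 4619 in input. The highest RIP and the lowest input library of USP14 were close (log2 -0.41, SE 0.14, adjusted p = 0.038), and the sign turned under total-count scaling (0.087). Its call was lost without RIP replicate 1 (-0.40) or 3 (-0.28) and without input replicate 1 (-0.36) or 2 (-0.39). USP13 overlapped between groups (log2 -0.43, adjusted p = 0.15), and it passed without RIP replicate 1 (-0.67, adjusted p = 0.013). Without RIP replicate 2 it was -0.20 (adjusted p = 0.48), and without input replicate 1 it was -0.27 (adjusted p = 0.42).

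USP39, a member of the splicing machinery that lacks deubiquitinase activity (ENSG00000168883, chromosome 2, 85602861 to 85649283), had 2486, 2597 and 3303 normalized counts in RIP against 5059, 5945 and 5658 in input. Its groups were well apart, and input exceeded RIP 1.998-fold (log2 -0.9987, SE 0.14, adjusted p = 1.0e-04). USP18, which removes the ubiquitin-like ISG15 (ENSG00000184979, chromosome 22, 18150170 to 18177397), had 335, 130 and 400 in RIP against 639, 456 and 510 in input. Its log2 difference of -1.03 (SE 0.38, adjusted p = 0.047) rested on RIP replicate 2 and became -0.53 (adjusted p = 0.093) without it. The USP18 call was also lost without input replicate 1 (-0.89), 2 (-1.14) or 3 (-1.06), and with edgeR (adjusted p = 0.070). ISG15 mRNA itself had 46.8 against 48.9 normalized counts on average and did not pass.

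A further list held genes with a DUSP domain, a fold named for these proteases, and their relative USP19. Of its 8 tested genes, 3 were lower (37.5%, against 21.2% of all tested genes). In the same list 1 gene was higher (USP32, 12.5% against 22.4%) and 4 did not pass. USP4 (ENSG00000114316, chromosome 3, 49277144 to 49340053) had 1154, 1179 and 1485 normalized counts in RIP against 1792, 2316 and 2178 in input (log2 -0.72, SE 0.16, adjusted p = 0.0030). USP11 (ENSG00000102226, chromosome X, 47233009 to 47248328) had 2829, 3059 and 3346 in RIP against 4892, 4893 and 4794 in input, inputs that differed by little (log2 -0.66, SE 0.12, adjusted p = 6.2e-04). USP48, which acts on histone H2A (ENSG00000090686, chromosome 1, 21678298 to 21783149), had 2381, 1796 and 2109 in RIP against 3527, 3341 and 2573 in input (log2 -0.58, SE 0.16, adjusted p = 0.010). The groups did not overlap in any of the 3 genes. USP48 did not pass without input replicate 2 (-0.53, adjusted p = 0.056). Under total-count scaling these differences shrank to -0.23, -0.17 and -0.089 and none passed. USP19, an enzyme of the endoplasmic reticulum membrane, lay below input in every RIP library but did not pass (log2 -0.33, adjusted p = 0.061), although it passed without RIP replicate 3 (-0.42, adjusted p = 0.026) and in the authors' deposited table (-0.32, adjusted p = 0.041).

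mRNAs with a terminal oligopyrimidine tract encode ribosomal proteins and translation factors, and the annotated starts of 6 USP genes with clear differences are shown beside 2 textbook examples. These, EEF1A1 and RPS6, lay below input, with log2 differences of -1.95 each (limma, adjusted p = 8.4e-07 and 2.2e-06). Each line gives 15 bases before and 15 from the annotated RefSeq start (GRCh38.p14, in the direction of the gene), with the first 5 transcribed bases in capitals.
EEF1A1 (chr6:73521018-73521047, minus strand): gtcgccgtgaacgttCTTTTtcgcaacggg
RPS6 (chr9:19380222-19380251, minus strand): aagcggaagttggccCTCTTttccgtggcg
USP5 (chr12:6852135-6852164, plus strand): ggaacggtgggagccGCCGTgtgtggagaa
USP39 (chr2:85602846-85602875, plus strand): cgtgggcggtgtcccAACTTcggaggacct
USP4 (chr3:49340039-49340068, minus strand): gcggggcggatgtccGGGCCggctgggccg
USP11 (chrX:47232994-47233023, plus strand): gtcttccaatctcgcACAGCtgcgttggct
USP12 (chr13:27171797-27171826, minus strand): gggcccgaggccgggAGTGCctgagcgccg
USP27X (chrX:49879469-49879498, plus strand): cctgcgagcagggggAGGAGccgccgccag

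A C at the first base followed by 4 pyrimidines (C or T), read on the gene's strand only, was present in EEF1A1 and RPS6 and in none of the 6 USP genes shown. Of the 49 USP genes, 38 had an entry, and 2 of these (USP3 and USP46, neither called) had the tract, against 4.07% of 35093 annotated starts. A single start was read per USP gene, not always the one at the end of the annotated gene. The 35093 starts can include several per gene, so the shares are not of like units. Annotated starts can differ from those used in these cells, and these letters say nothing on what the mRNAs bind.

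Log2 differences were also set side by side within sets of related USP genes. Of 16 sets of close relatives, 11 had at least 2 tested genes, and the gap between the highest and lowest log2 difference in a set ran from 0.17 (USP20 and USP33) to 1.34 (USP27X, USP51 and USP22), with a median of 0.66. USP12 and USP46 were 0.98 apart, USP13 and USP5 0.75, and USP38 (log2 0.90) and USP35 (log2 0.22) 0.68. USP15 stood at -0.060 beside USP11 and USP4 at -0.66 and -0.72. USP45 had 0.14 beside -0.43 for USP16, and USP2 had 0.84 beside 0.38 for USP21. The gaps were not tested, and the smallest lies within the SEs of its genes (0.21 for USP20 and 0.14 for USP33). In no set was 1 member called higher and another called lower.

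**Figure D4:**
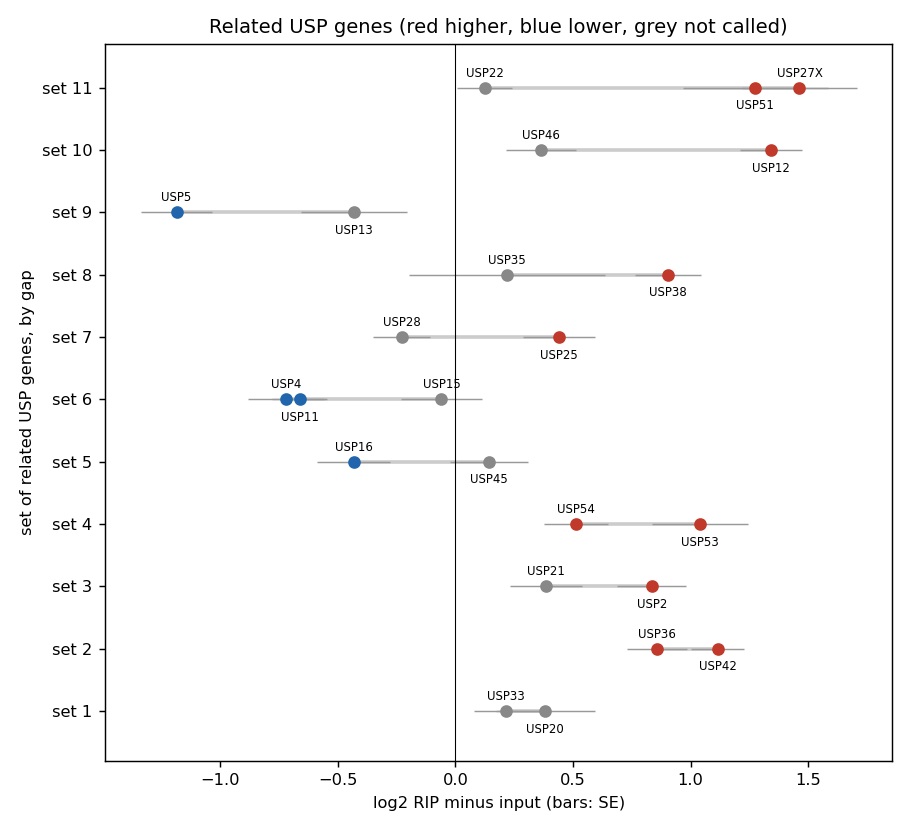
Log2 difference of RIP minus input (x axis) with SE bars for 11 sets of related USP genes (y axis, sorted by the gap within the set); red marks genes higher in RIP, blue lower and grey not called. The widest gap, 1.34, is between USP27X and USP22, and the smallest, 0.17, between USP20 and USP33.

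Some well-known members did not pass. USP9X, a regulator of many substrates including MCL1, had 26870, 24825 and 22130 normalized counts in RIP against 40036, 31449 and 25224 in input. The groups overlapped, since RIP replicate 1 lay above input replicate 3 (log2 -0.37, adjusted p = 0.090). It passed with DESeq2 (-0.40, adjusted p = 0.031), in the authors' deposited table (-0.39, adjusted p = 0.030) and without input replicate 3 (-0.53, adjusted p = 0.015), and it was -0.20 without input replicate 1. USP34 and USP24 had log2 differences of -0.23 and -0.16 (adjusted p = 0.34 and 0.39). With 1 library left out they ran from -0.40 (without input replicate 3) to -0.056 (without input replicate 1) and from -0.28 to -0.035 (the same libraries). USP8, which sorts receptors at endosomes, had 2242.4 ± 542.6 against 2055.5 ± 381.8 (log2 0.12, adjusted p = 0.65). In the list for endosome, endoplasmic reticulum and mitochondrion, 2 of 5 genes were higher (USP25 and USP30) and none lower, where 22.4% and 21.2% of all tested genes were. USP47 and USP33 (log2 0.31 and 0.22), USP20 (0.38), USP40 (0.14) and USP45 (0.14) overlapped between groups and did not pass. The rank correlation (Spearman) of genomic span with the log2 difference was 0.014 over the 46 genes, and that of the mean input with it was -0.34. Both are descriptions over genes of the same libraries, and the second shares the input values on both sides.

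Several of the scarcest members had uncertain differences, whereas the calls of USP27X and USP51, also scarce, held in all 16 alternatives. USP43 (284.7 ± 88.2 against 183.7 ± 79.6) and USP35 (164.3 ± 59.3 against 134.2 ± 6.8, SD, n = 3 each) overlapped between groups (adjusted p = 0.20 and 0.71). Among the 8 tested USP genes with a RIP mean under 1000 normalized counts, RIP replicate 2 was the lowest RIP library in 5, against 6 of the other 38. Its part in these values was measured by leaving it out, which moved USP18 as given above. USP6, USP9Y and USP50 stayed below the mean of 10 and were not tested. USP6 had 0, 0 and 0.784 in RIP against 1.04, 0 and 0 in input, values of 1 read at most. USP50, which overlaps USP8 on chromosome 15, had 26.3 in input replicate 2 and no read in the other 5 libraries.

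Several genes overlapping or neighbouring USP genes carried few reads. USP12-AS1, USP12-DT and USP30-AS1 had group means of at most 3.10 normalized counts, and so did the processed pseudogenes of USP12 and USP8. USP2-AS1 was not as scarce, with 249.2 in RIP against 198.6 in input, above the means of the tested gene USP35 in both groups. USP46-DT had 100.3 against 71.0 and USP27X-DT 80.6 against 39.1. None of these 3 passed (limma, adjusted p = 0.55, 0.46 and 0.96). The sources used here do not state the strand setting, so reads of an antisense gene cannot be told from those of its partner.

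Other genes of the ubiquitin system were set beside the family. Of 39 further deubiquitinases from other families and USP-like relatives, 37 were tested. Of these, 15 were higher (40.5%, against 22.4% of all tested genes) and 7 lower (18.9%, against 21.2%). These called shares were close to those of the USP genes. Every RIP library lay above every input for 15 (40.5%) and below for 11 (29.7%), against 27.4% and 27.3% of all tested genes. The corresponding USP shares were 41.3% and 19.6%. The median log2 difference of the 37 genes was 0.061. The OTU enzyme OTUD1 had the largest log2 difference, 2.23 (adjusted p = 1.2e-06), and USPL1, which acts on SUMO, had 1.61 (adjusted p = 2.5e-06). PAN2, which carries an inactive USP-like domain and is itself a deadenylase, had 1056.1 ± 110.1 against 1292.8 ± 146.3 (SD, n = 3 each) and did not pass (log2 -0.29, adjusted p = 0.17). Of 13 cofactors and substrates 4 were higher and 4 lower (30.8% each), shares near those of all tested protein-coding genes (26.0% and 25.3%). RPS27A, which encodes ubiquitin fused to a ribosomal protein, was lower (log2 -2.01, adjusted p = 1.4e-06). The polyubiquitin gene UBB (log2 -1.87, adjusted p = 2.0e-06) and UBA1, the main ubiquitin-activating enzyme (log2 -1.30, adjusted p = 6.0e-06), were lower as well.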

How the data were processed

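RNA from RIP and input libraries of HEK293T cells was analysed from 1 table. Per the submitters' processing notes the authors used STAR, featureCounts and DESeq2 with the build GRCh38; the sources used here state no versions, annotation, strand setting or filters. The authors deposited gene counts divided by 1 size factor per library (a signal), and every value was a whole number of reads within 0.01 read (100%), so reads were recovered. Per the file headers, the authors also give a log2 fold with its SE, a Wald statistic (a score) and p-values raw and adjusted. The deposited mean signal averages 9 libraries, more than the 6 columns.

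Here, log2(normalized count + 1) of genes with a mean of at least 10 was fitted with limma 3.58.1 (R 4.3.3, trend) for RIP against input, without a block, with Benjamini-Hochberg adjustment over all tested genes and a threshold of 0.05. Fold changes are on that scale. Alternatives used edgeR 4.0.16 (TMM) and DESeq2 1.42.0 on the recovered reads, the authors' deposited table, other pseudocounts (0.5 and 5), filters, scalings and thresholds, and each library left out. The depth of the libraries is in the report; no molecular identifiers are stated, so reads may not be independent molecules.

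Members, lists and the naming rule (the 8 largest differences per direction among called, non-overlapping genes averaging 100 or more, and all sets of relatives) were chosen with earlier results of these data known. Symbols were matched to RefSeq tables of GRCh38.p14 for positions and start sequences. Some genes of the lists are not reported here.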

Additional observations from a re-analysis of the deposited data

How the results depend on the processing

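Across 16 alternatives, 15 of the 18 higher and 2 of the 8 lower USP genes kept both direction and call. The exceptions were USP25, USP49 and USP54 (higher) and USP4, USP11, USP14, USP16, USP18 and USP48 (lower). The count of lower genes moved most: 5 with no filter, 5 with scaling by protein-coding reads, 2 with total-count scaling, 4 at an adjusted p under 0.01, and 4 to 8 when a library was left out (5 without input replicate 1, 4 without input replicate 2). The count of higher genes was 30 under total-count scaling and 15 to 19 with a library left out. The family's median was 0.76 under total-count scaling, 0.40 under protein-coding scaling (medians of all tested genes 0.44 and 0.086) and 0.20 to 0.34 with a library left out. Over all genes, total-count scaling gave 6149 higher and 1653 lower, and leaving out a library 3106 to 3631 and 2867 to 3606. Lower genes over all genes numbered 3286 with no filter, 2967 with protein-coding scaling and 2623 at an adjusted p under 0.01. The authors' deposited table called 20 USP genes higher and 9 lower, edgeR 18 and 6, and DESeq2 18 and 9. Over all genes these called 4254 higher and 4108 lower, 3714 and 3435, and 3981 and 3757, in the same order.

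Signs turned under total-count scaling for USP28 (0.27), USP13 (0.063), USP14 (0.087), USP34 (0.27), USP9X (0.13), USP15 (0.43), USP16 (0.061), USP24 (0.33) and USP19 (0.17), by construction of a scaling that raises all values. USP15 also turned under protein-coding scaling (0.072) and without RIP replicate 3 (0.057), input replicate 1 (0.041) or input replicate 2 (0.0067), its range with a library left out being -0.23 to 0.057. USP8 turned without RIP replicate 1 (-0.073) or input replicate 3 (-0.010), USP35 without RIP replicate 3 (-0.0050) and USP45 without RIP replicate 1 (-0.013); with a library left out their highest values were 0.25, 0.55 and 0.22. The cause was not tested. None of these, apart from USP14 and USP16, was called.

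Columns with the same number share only a number here. Their deviations from the group means correlated at 0.077, 0.049 and 0.087, higher than with any other number, yet under 0.1. With the number as a replicate block, 21 USP genes were higher and 13 lower, the latter including USP9X, USP13, USP19, USP28 and USP34. In that fit 4053 of all 16765 tested genes were higher and 3925 lower.

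A comparison chosen after seeing the data took the mean of 6 libraries (the 3 input columns and the 3 further libraries in the authors' mean) as the baseline and gave a median of 0.36, with no test.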

Other observations

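The mean deposited by the authors covers 9 libraries, so the average of the 3 libraries without a column follows from it, with no spread. In these, CNOT7 averaged 4240 normalized counts, against 24799.9 in the input columns. The ratio of that average to the mean of the input columns had a median of 0.93 over the 46 tested USP genes, against 1.004 over all tested genes, and was above 1 for 20 of them. It ran from 0.59 for USP15 to 1.60 for USP36. USP22 averaged 26457 in the further libraries against 17081.5 in the input columns, and USP44 543.8 against 858.9. Set against the mean of all 6, the log2 ratio of means of USP36 was 0.48 instead of 0.86, that of USP37 0.88 instead of 1.18, and that of USP22 -0.22 instead of 0.13. Without values per library these differences were not tested.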
